A study of Mus musculus with 29 samples.

Results

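The hypothalamus of mice was profiled 192 h after tumour cells were placed under the skin, and the values described here are the log2 ratios of hypothalamic RNA from tumour-injected over PBS-injected mice at that time. The arrays were chosen by their labels and by the array print, and measured intensities entered the choice of print. They are 5 of the 29 arrays of the series and cover 3 of its 13 biological replicates. Over all prints the series holds 9 arrays of 4 replicates at 192 h. The other 4 arrays, among them both of replicate 2, are on a print whose intensities, matched by probe name, bore almost no relation to those of the other prints (given at the end), and they were left out.

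Both groups were 8-week-old female Balb/c mice. Under the skin of tumour mice 100000 4T-1 cells were placed in 100 µl PBS. 4T-1 is a mammary carcinoma line that grows in this strain. Control mice received 100 µl PBS, and mice of both groups were decapitated 192 h later. Each array was a direct 2-colour hybridization of tumour against PBS RNA on in-house printed oligonucleotides, so a value is a ratio within an array and not a level. Replicate 1 was poly(A) RNA on 1 array with tumour in Cy5. Replicates 3 and 4 were total RNA, each on 2 arrays with the dyes exchanged. Whether an array's RNA came from 1 animal or a pool is not in the labels, so p-values measure only the spread between these samples.

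The hypothalamus is the brain region that sets appetite, body temperature, water balance, reproduction and the stress response, largely through peptide hormones made by small groups of neurons. Vasopressin and oxytocin neurons release their peptides into the blood, releasing-hormone neurons control the pituitary, and orexin, CART and melanin-concentrating hormone neurons take part in feeding and arousal. A growing peripheral tumour can reach these neurons through cytokines, nutrients, glucocorticoids and nerve signals, and such signals are known for loss of appetite and sickness behaviour.

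Of 8726 genes named on the prints, 7479 had a ratio in at least 1 of the 192 h replicates and 3269 had one in all 3 and were tested. Usable ratios came from 31.2% to 81.1% of the spots, depending on the array. Of the hypothalamic peptide genes, Avp, Oxt, Hcrt, Cartpt, Gnrh1, Adcyap1 and Sst had a value in all 3 replicates, and Pmch had none. A value means only that a spot was above 0 in both channels and not saturated, so the tissue could not be checked on its markers. The sign of every ratio assumes that the second scanner channel is Cy5, as the labels list it. This direction is likely rather than settled, because no dye is named in the scanner output.

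At 192 h no gene passed the test (limma, Benjamini-Hochberg adjusted p under 0.05; 0% of 3269 genes, smallest adjusted p 0.599). At an unadjusted p under 0.05 there were 27 higher genes (0.826%) and 63 lower genes (1.93%), 90 together against 163.45 that this threshold gives when nothing differs. The mean ratio was above 0 for 49.4% of genes, and the median over all genes was -0.00193. The median SD of 3 replicates was 0.25 on the log2 scale and the median SE 0.18. Means above 0.5 were found for 8 genes and below -0.5 for 42. In simulated ratios with the missing values of these arrays, 200 of 3269 genes were changed (192 h against 0). The same test recovered 0% of changes of 0.5 on the log2 scale, 77% of changes of 1 and 99% of changes of 2. It made 0, 8 and 12 false calls. These rates hold for the simulated ratios alone. In the data, arrays with exchanged dyes did not give like ratios (below), so the rates do not exclude changes of these sizes.

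The replicates did not share a pattern across genes. Higher in all 3 replicates were 385 genes (11.8%), and lower in all 3 were 417 (12.8%). Across genes, which are not independent replicates, Pearson's r was -0.096 between replicates 1 and 3 (3351 genes), 0.067 between replicates 1 and 4 (4191 genes) and 0.028 between replicates 3 and 4 (4551 genes). The SD of the log2 ratios was 0.43 in replicate 1, 0.34 in replicate 3 and 0.25 in replicate 4. Each of these replicates lay on a print of its own, so print and replicate cannot be told apart, and in replicate 1 the RNA kind, the single dye orientation and the print cannot be told apart.

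Arrays of 1 pair of RNAs with exchanged dyes did not give like ratios either. Whether the channels of each single array follow its labelled dyes was not tested, and an array turned the other way would change the mean of its replicate. With the dye effect of each probe taken from the other swapped replicates, the 2 arrays of replicate 3 had r = -0.357 across 2321 genes and those of replicate 4 had r = -0.516 across 4529 genes. The median absolute difference between the arrays was 0.50 in replicate 3 and 0.35 in replicate 4. With the dye effect used for the values below, which includes the replicate itself and so draws its arrays together, r was -0.045 in replicate 3 (2413 genes) and -0.043 in replicate 4 (5134 genes), with median differences of 0.35 and 0.21. With loess fitted within print blocks, and the dye effect again from the other swapped replicates, the correlations were -0.286 and -0.316. They stand beside -0.357 and -0.516, and the median differences were then 0.22 and 0.25. A gene measured in only 1 orientation therefore carries whatever the subtracted dye effect leaves on that array. This was so for 1356 genes in replicate 3 and 749 in replicate 4, and 337 genes had 1 array in every replicate. Among genes named below, Tpp2, Brsk2, Bak1, 3200001D21Rik, Cxcl12, Chrm4, Vamp7 and Copz1 had tumour in Cy3 only in both replicates 3 and 4. So did Slc7a9, Bad, Kif23, Efnb3, Ccdc3, Aqp2 and Tenm3. Ecrg4, Smarce1 and Trim54 had tumour in Cy5 only.

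**Figure D1:**
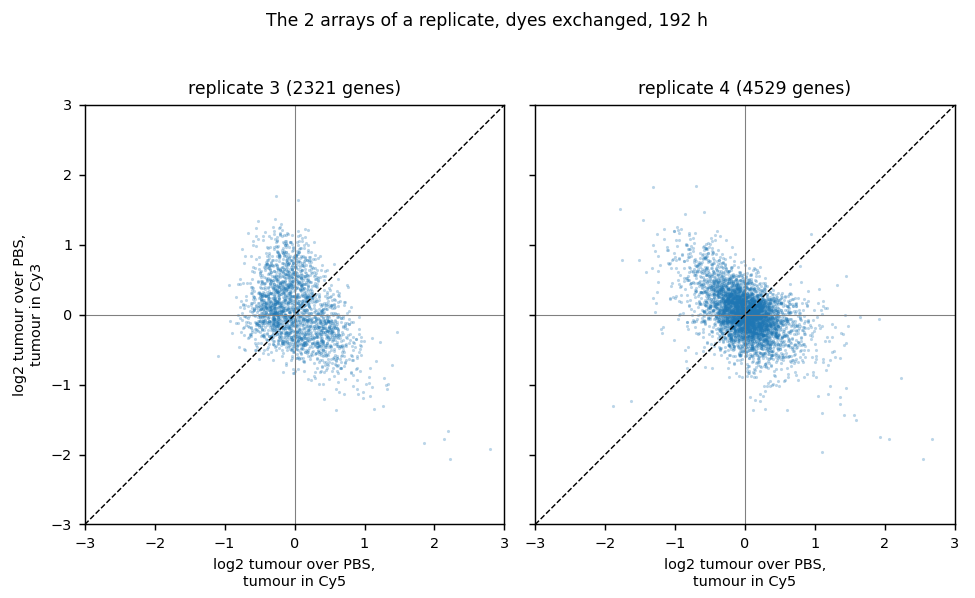
Log2 tumour over PBS ratios at 192 h on the array with tumour in Cy5 (x axis) against those on the array with tumour in Cy3 (y axis), for replicate 3 (2321 genes, left) and replicate 4 (4529 genes, right). Each point is a gene, the dashed line marks equal ratios, the dye effect comes from the other swapped replicates, and 1 gene lies outside the axes. The points run from upper left to lower right, away from the dashed line, with r = -0.357 and -0.516.

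On all 5 arrays 1501 genes had a value. Of these, 43 were above 0 on every array (2.86%) and 52 below 0 on every array (3.46%). Their means reached 0.54 on the higher side and -0.52 on the lower side. An unadjusted p under 0.05 by limma was found for 5 of the 43 and 4 of the 52. Over all 3269 genes tested the shares were 0.826% higher and 1.93% lower. These sets were picked for 1 sign on every array from the values that give the p, so more small p-values are built in.

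Of the 10 genes with higher ratios in all 3 replicates and the smallest p, none passed the test. Ecrg4, which encodes the secreted peptide precursor augurin and is strong in choroid plexus, had 0.14 in replicate 1, 0.97 in replicate 3 and 1.02 in replicate 4, a mean of 0.71 ± 0.50 (SD, n = 3), a 1.63-fold difference. Replicates 3 and 4 were both measured with tumour in Cy5 only, and they were far above replicate 1. Ap2a2, a subunit of the AP-2 clathrin adaptor, had 0.52 in replicate 1, 0.33 and 0.53 on the arrays of replicate 3 and 1.36 on 1 array of replicate 4, a mean of 0.77 ± 0.52. Foxb1, a forkhead factor of the mammillary region, had 0.82 in replicate 1, 0.68 in replicate 3 and 0.26 and -0.02 on the arrays of replicate 4. Its mean was 0.54 ± 0.37, and its lowest array lay just below 0.

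Fasn, the fatty acid synthase gene, was above 0 on every array, at 0.79 in replicate 1, 0.10 and 0.77 in replicate 3 and 0.40 and 0.08 in replicate 4. Its mean was 0.49 ± 0.28, a 1.40-fold difference (unadjusted p 0.0144 by limma). Oxa1l, an insertase of the mitochondrial inner membrane, had 0.34 in replicate 1, 0.52 in replicate 3 and 0.80 and 0.10 in replicate 4. Its replicate means lay close together, 0.44 ± 0.09, while its replicate 4 arrays did not. Insr, the insulin receptor gene, had 0.20, then 0.49 and 0.36, then 0.43 on its only replicate 4 array. All 4 values were above 0, with a mean of 0.35 ± 0.13.

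Adcy8, a calcium-stimulated adenylyl cyclase gene, had 0.53, 0.41 and 0.46 in replicates 1, 3 and 4. Its dye effect rested on replicate 4 alone, which makes the 2 arrays of that replicate equal by construction. The dye effect of 220 of the tested genes rested on 1 replicate, of this or another time. Genes named below for which this held include Xpo4, Cxcl12, Gnb3, Ccdc3, Trim54, Kif23, Cd3d, Smarce1, Ugt8a, Chrm4 and Slc7a9. Vcam1, an adhesion molecule of activated endothelium, had 0.46 in replicate 1, 0.56 in replicate 3 and -0.09 and 0.48 on the arrays of replicate 4. Hsd17b12, an enzyme of fatty acid elongation, had 1.60 on its replicate 3 array, against 0.30 in replicate 1 and -0.16 and 0.19 in replicate 4. Bcl7b, a subunit of the BAF chromatin remodelling complex, had 0.76, 0.60 and values of 0.00 and 0.01 in replicate 4. In both of the latter genes replicate 4 stood near 0.

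On the lower side, Tpp2 had the smallest p of all genes. It encodes tripeptidyl peptidase II, a cytosolic peptidase that acts downstream of the proteasome. Its log2 ratio was -0.94 in replicate 1, -0.76 in replicate 3 and -0.67 in replicate 4, a mean of -0.79 ± 0.14 (SD, n = 3), or 1.73-fold lower (unadjusted p 0.000183, adjusted p 0.599 by limma). The replicates lay close together, but replicates 3 and 4 were each measured with tumour in Cy3 only. Brsk2, a kinase of neuronal polarity, had -0.54 in replicate 1, -1.76 in replicate 3 and -0.50 in replicate 4, a mean of -0.93 ± 0.71, with replicates 3 and 4 again in Cy3 only. Gpcpd1, a glycerophosphocholine phosphodiesterase gene, had the widest spread of these 10 lower genes, -2.74 in replicate 1, -1.09 in replicate 3 and 0.35 and -0.68 in replicate 4. Its arrays of replicate 4 had opposite signs.

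Bak1, a pore-forming member of the mitochondrial pathway of apoptosis, had -0.23, -0.99 and -0.48 in replicates 1, 3 and 4. Its replicates 3 and 4 were measured with tumour in Cy3 only. Cebpa, a transcription factor gene of the C/EBP family, had -0.88 in replicate 1, 0.02 and -0.39 in replicate 3 and -0.77 in replicate 4. Egr4, an immediate early zinc finger gene, had -0.68 in replicate 1 and -0.95 in replicate 3 but -0.11 on both arrays of replicate 4. Xpo4, a nuclear export receptor gene, had -0.47, -0.58 and -0.57, the narrowest spread of these 10 lower genes (SD 0.06), with a dye effect from replicate 4 alone. The pseudogene Spin2-ps1 had a mean of -0.54 ± 0.19, and 3200001D21Rik had -0.89 ± 0.59, with its replicates 3 and 4 in Cy3 only. The transcript 4930465K10Rik was below 0 on all 5 arrays, at -0.90, -0.31, -0.36, -0.52 and -0.14, with a mean of -0.52 ± 0.33.

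**Figure D2:**
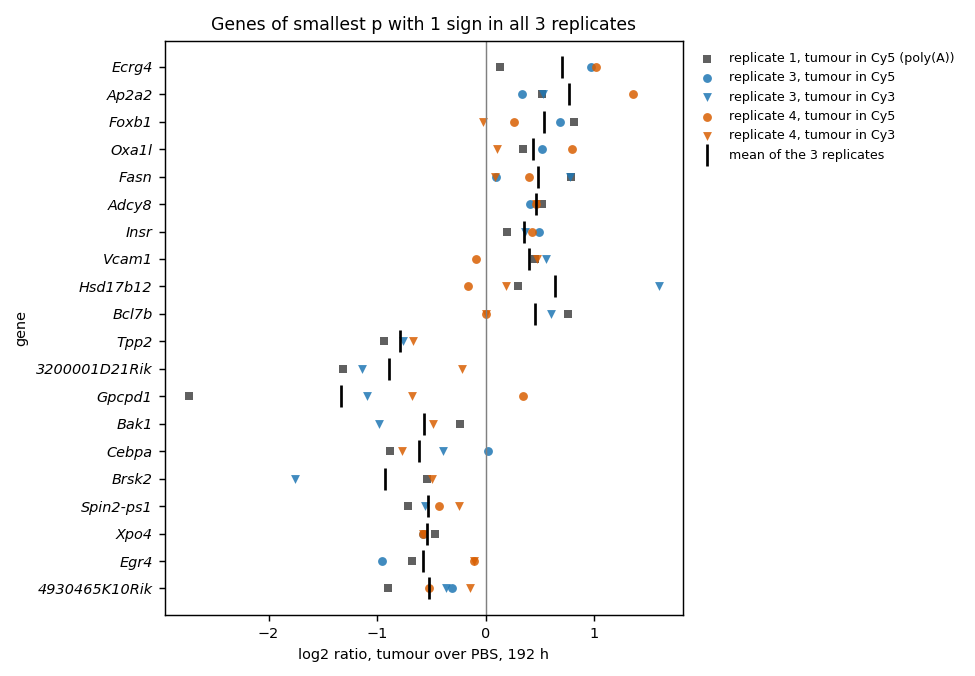
Log2 tumour over PBS ratio on each 192 h array (x axis) of the 10 higher and 10 lower genes of smallest p with 1 sign in all 3 replicates (y axis). Colours mark replicates, symbols the dye of the tumour RNA, and the bar the mean of the replicates. Arrays spread widely around most means, from -2.74 to 0.35 in Gpcpd1, while the 3 measured arrays of Tpp2 sit between -0.94 and -0.67.

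In bulk tissue fewer cells of a type and less RNA per cell cannot be told apart, which bears on the peptide genes first. These genes were mostly above 0 in replicates 1 and 3 and near 0 in replicate 4, and none passed the test. Avp, the vasopressin gene, had 0.73 in replicate 1, -0.25 and 0.64 in replicate 3 and 0.23 and 0.12 in replicate 4, a mean of 0.37 ± 0.31 (SD, n = 3). Oxt, the oxytocin gene, had 0.41 in replicate 1, -0.12 and 0.57 in replicate 3 and -0.09 and -0.14 in replicate 4. For both genes the replicate 3 arrays lay on opposite sides of 0. Gnrh1, the gene of gonadotropin-releasing hormone, was the only one of these peptide genes below 0 in each replicate. Its arrays read -0.43, then 0.13 and -0.44, then -0.03 and -0.27. Its mean was -0.25 ± 0.16.

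Sst, the somatostatin gene, had 0.41 in replicate 1, 0.08 and 0.45 in replicate 3 and -0.14 and 0.02 in replicate 4. Adcyap1, which encodes PACAP, had 0.83 in replicate 1, -0.19 and 0.13 in replicate 3 and -0.27 and 0.38 in replicate 4. Hcrt, the orexin gene, had 0.32, 0.62 and, in replicate 4, 0.14 and -0.22. Cartpt, the gene of the CART peptide, had 0.54, 0.36 and, in replicate 4, -0.23 and 0.22. In every one of these 4 genes the arrays of replicate 4 had opposite signs, and the unadjusted p by limma was 0.1 or above.

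**Figure D3:**
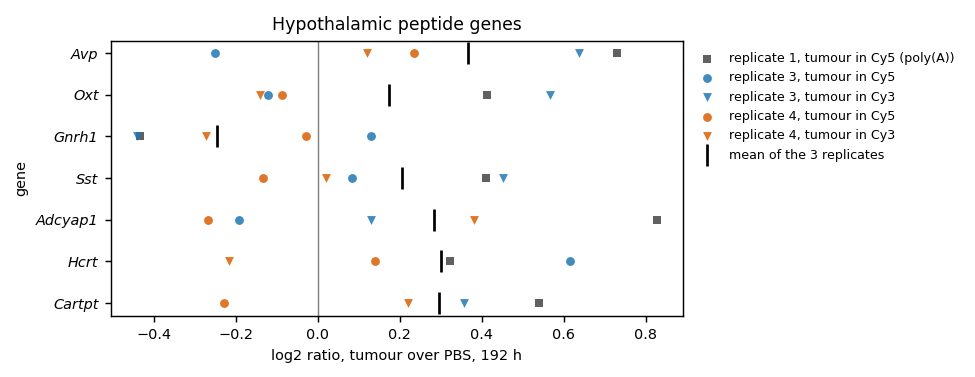
Log2 tumour over PBS ratio on each 192 h array (x axis) of 7 hypothalamic peptide genes (y axis), with symbols as for the genes of smallest p. Replicate 1, the single poly(A) array, lies to the right of 0 for every gene but Gnrh1, and the replicate 4 arrays lie between -0.28 and 0.38.

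The neurohypophysial and releasing hormone genes had the highest median of the function groups of 5 or more tested genes, 0.21 over 5 genes, of which 4 were above 0. The medians by replicate were 0.41, 0.19 and -0.06. Genes for feeding peptides, their receptors and signals had a median of 0.02 with 7 of 13 above 0, and Tac1, the substance P precursor gene, was above 0 on all 5 arrays with a mean of 0.21 ± 0.19. Of 6 genes of secretory granules and peptide processing 3 were above 0 (median 0.01). Chga, which encodes chromogranin A, was the only one of them with 1 sign in all replicates. Its arrays read 0.49, then 0.15 and 0.65, then 0.77 and -0.25, with a mean of 0.38 ± 0.11.

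Genes of energy metabolism had mostly positive ratios in replicates 1 and 3. Of the respiratory chain and ATP synthase genes 29 of 36 were above 0, with a median of 0.09 and replicate medians of 0.11, 0.13 and -0.03; over all genes 49.4% were above 0. Of the 36, 5 were higher in all 3 replicates and 2 lower, where the shares over all genes were 11.8% and 12.8%. Atp5j, a subunit of ATP synthase, had 0.36, 0.49 and, in replicate 4, 0.04 and -0.02. Uqcrc1, a core protein of complex III, was above 0 on all 5 arrays, but the value of 0.93 on 1 array of replicate 3 stood far above the other 4, which ran from 0.05 to 0.19. Ndufb3, a subunit of complex I, had -0.37 and 0.48 on the arrays of replicate 3.

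Glycolysis and tricarboxylic acid cycle genes had a median of 0.10 with 9 of 13 above 0, and their replicate medians were all above 0, at 0.17, 0.21 and 0.07. Higher in all 3 replicates were 5 of the 13 (11.8% of all genes), and none was lower in all 3 (12.8% of all genes). Idh3g, a subunit of isocitrate dehydrogenase, had a mean of 0.31 ± 0.20, Pfkp, a phosphofructokinase gene, 0.35 ± 0.19 and Mdh2, the mitochondrial malate dehydrogenase gene, 0.24 ± 0.24. Pfkp was above 0 on all 5 arrays, between 0.02 and 0.84. Mitochondrial ribosome genes had 20 of 29 above 0 and a median of 0.07. Mrpl17, of the large subunit, went the other way on all 5 arrays, at -0.79 in replicate 1 and between -0.29 and -0.21 on the 4 arrays of total RNA, with a mean of -0.43 ± 0.31. Mrpl15 had -0.25 ± 0.18 and Mrps18c 0.33 ± 0.44.

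Genes of fatty acid and cholesterol synthesis had 8 of 14 above 0 and a median of 0.02. Beside Fasn, Dgat1, which makes triglycerides, had 0.37 in replicate 1 and then 0.99 and -0.21, 0.73 and -0.39 on the swapped arrays. Its mean of 0.31 ± 0.12 had a small SD between replicates although its arrays differed by over 1, and it was below 0 without the dye correction and by the authors' deposited table. Sc5d, of the last steps of cholesterol synthesis, had -0.23 ± 0.24.

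Groups of protein synthesis and turnover showed no shared direction. Cytosolic ribosome genes had 14 of 25 above 0 and a median of 0.06, with replicate medians of 0.14, 0.08 and -0.08. Rps25 had 0.21 ± 0.05, Rps27 -0.28 ± 0.21 and Rpl7a -0.19 ± 0.14, the last turning above 0 with median centring and by the authors' deposited table. Ribosomal protein genes have many near-identical pseudogene copies, so their probes may read more than 1 transcript. Translation factors had 6 of 14 above 0, among them Eif1ad at 0.12 ± 0.12, which turned below 0 with median centring; Eif4e, the cap-binding factor gene, had -0.28 ± 0.32 and Eef1e1 -0.21 ± 0.05.

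Proteasome genes had 9 of 16 above 0 and a median of 0.06. Of these 16, 6 were higher in all 3 replicates (11.8% of all genes) and none was lower (12.8% of all genes). Psmd3 and Psmd13, subunits of the regulatory particle, had 0.32 ± 0.25 and 0.26 ± 0.29, and the ATPase subunit gene Psmc5 had 0.19 ± 0.18, all with arrays of both signs. Genes of ubiquitin conjugation and removal had 32 of 59 above 0 (median 0.02). Usp12, a deubiquitinase gene, was below 0 on all 5 arrays with a mean of -0.35 ± 0.27, and the ubiquitin ligase gene Trim39 had -0.51 ± 0.43. Trim54 had 0.31 ± 0.13, below 0 without the dye correction and by the authors' deposited table.

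Heat shock proteins and chaperones had 17 of 27 above 0. Their median was 0.03, and the replicate medians were above 0 in each replicate, at 0.10, 0.07 and 0.08. All 3 replicates were above 0 for 7 of the 27 (11.8% of all genes) and below 0 for none (12.8% of all genes). Hspa4, a member of the HSP110 family of nucleotide exchange factors, was above 0 on all 5 arrays, at 0.93 in replicate 1, 0.30 and 0.69 in replicate 3 and 0.20 and 0.18 in replicate 4, with a mean of 0.54 ± 0.37, a 1.45-fold difference. Cct8, a subunit of the chaperonin that folds actin and tubulin, was also above 0 on all 5, at 0.55, 0.35, 0.46, 0.11 and 0.08 (mean 0.35 ± 0.23). In both genes replicate 1 was highest and replicate 4 lowest. Bag1, a co-chaperone gene, had 0.84 in replicate 1 against values from -0.04 to 0.31 on the other arrays.

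**Figure D4:**
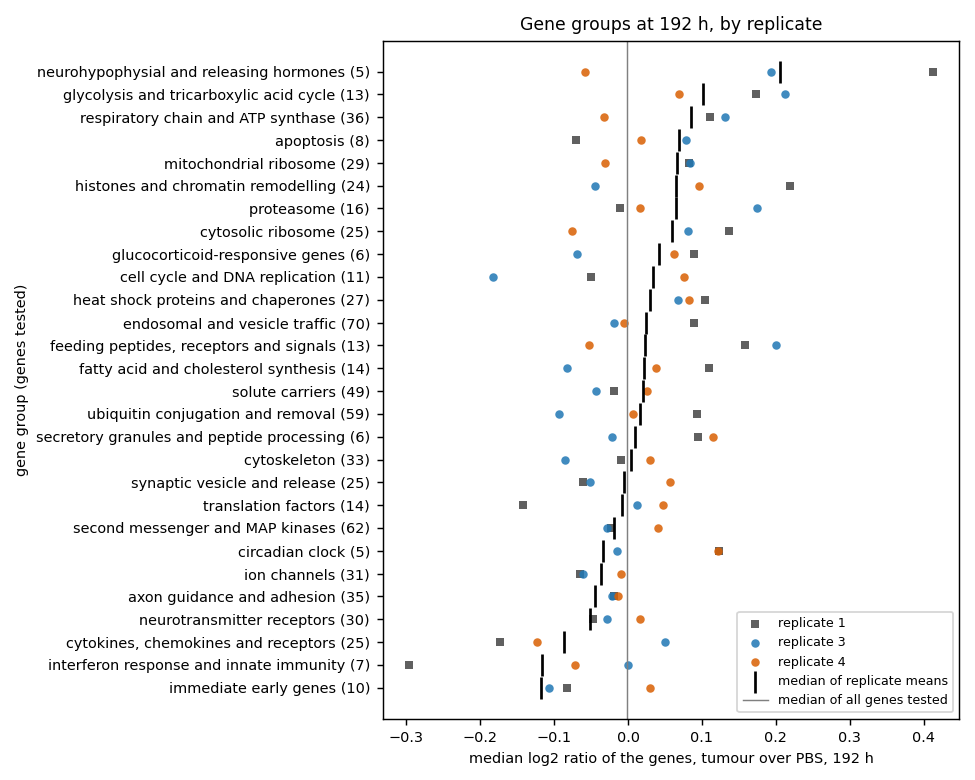
Median log2 tumour over PBS ratio at 192 h of the tested genes in 28 function groups (y axis, genes tested in brackets), for each replicate (points) and for the means of the replicates (vertical ticks); the grey line is the median of all 3269 genes. The ticks run from -0.12 to 0.21, and for most groups the replicates lie on both sides of the line.

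Genes of neuronal signalling were close to the median of all genes. Neurotransmitter receptor genes had 12 of 30 above 0 (median -0.05), ion channel genes 11 of 31 (median -0.04) and synaptic vesicle and release genes 12 of 25 (median -0.01). Gabra3, a GABA-A receptor subunit gene, had -0.63 in replicate 1, 0.37 and -0.59 in replicate 3 and -1.24 in replicate 4, a mean of -0.66 ± 0.57. Chrm4, a muscarinic receptor gene, had -0.28 ± 0.21 and P2rx1, an ATP-gated channel gene, 0.33 ± 0.29. Kcns1, a modifier subunit of potassium channels, was below 0 on all 5 arrays with a mean of -0.29 ± 0.16, as was the chloride channel gene Clcn1, at -0.17 ± 0.11, which turned above 0 with median centring. Kcnab3 had 0.15 ± 0.11. Among the vesicle genes Cplx1, a complexin gene that clamps and promotes release, had 0.26 ± 0.08, Vamp7 -0.31 ± 0.32, above 0 by the authors' deposited table, and Syt8 0.13 ± 0.21.

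Genes of endosomal and vesicle traffic had 39 of 70 above 0 (median 0.02), with Ap2a2 highest. Copz1, a coatomer subunit gene, had -0.36 ± 0.26, above 0 by the authors' deposited table, and Arl3, a small GTPase gene of cilia, -0.26 ± 0.32. Solute carrier genes had 28 of 49 above 0 (median 0.02), and Slc11a1, a metal transporter gene of phagocytes, was below 0 on all 5 arrays with a mean of -0.23 ± 0.04. Slc35f6 had -0.33 ± 0.24 and Slc7a9 -0.24 ± 0.19. Second messenger and MAP kinase genes had 26 of 62 above 0 (median -0.02), with Pde1a, a calmodulin-dependent phosphodiesterase gene, at -0.37 ± 0.16 and Gnb3, a G protein subunit gene, at -0.35 ± 0.20. Both replicate 3 arrays of Gnb3 had -0.15 by construction, because its dye effect rested on that replicate alone.

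Immediate early genes, which neurons transcribe soon after activation, had 3 of 10 above 0 and a median of -0.12, with replicate medians of -0.08, -0.11 and 0.03. Beside Egr4, Nr4a3, an orphan nuclear receptor gene, had -0.05 in replicate 1, 0.63 and -0.75 in replicate 3 and -1.32 in replicate 4, so its mean of -0.48 ± 0.73 rested on replicate 4. Dusp1, a phosphatase gene that is also glucocorticoid-responsive, had -0.11 ± 0.11. Glucocorticoid-responsive genes had 4 of 6 above 0 (median 0.04), with Rasd1, a Ras-like gene induced by dexamethasone, at 0.42, then -0.21 and 0.55, then 0.36, a mean of 0.31 ± 0.13. Circadian clock genes had 2 of 5 above 0: Csnk1e, a kinase of the PER proteins, at 0.48 ± 0.35, and Dbp, a clock-controlled transcription factor gene, at 0.23 ± 0.13.

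Cytokine, chemokine and receptor genes were below 0 for 19 of 25 members, with a median of -0.09 and replicate medians of -0.17, 0.05 and -0.12. Of 120 such genes on the prints, 25 had a value in all 3 replicates. Ccl4, a chemokine of macrophages and microglia, had -1.11 in replicate 1, -0.91 in replicate 3 and 0.36 and -0.48 on the arrays of replicate 4, a mean of -0.69 ± 0.56. Cxcl12, a chemokine made by neurons, endothelium and stroma, had -0.21, -0.31 and -0.79, all below 0, each of replicates 3 and 4 on 1 array with tumour in Cy3. Ccr6, a chemokine receptor gene, had 0.32 ± 0.26. Genes of the interferon response and innate immunity had 5 of 7 below 0 (median -0.12), with H2-M2, a class I MHC gene, at -0.41 ± 0.26 and Relb, an NF-kB subunit gene, at -0.32 ± 0.24, against Vcam1 at 0.40 ± 0.19.

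Nuclear and cell cycle groups were also spread around 0. Histone and chromatin remodelling genes had 15 of 24 above 0 (median 0.07). Hdac5, a histone deacetylase gene, was above 0 on all 5 arrays, at 0.25, 0.15, 0.97, 0.25 and 0.20, with 1 array of replicate 3 far above the others (mean 0.34 ± 0.19). Smarce1, a BAF subunit gene, had 0.42 ± 0.32, below 0 under 4 of the alternative settings, and the histone gene H2bfm had -0.41 ± 0.35. Cell cycle and DNA replication genes had 6 of 11 above 0, with Mcm7, a helicase subunit gene, below 0 on all 5 arrays (mean -0.26 ± 0.09) and Plk2, a kinase also induced by neuronal activity, above 0 on all 5 (mean 0.18 ± 0.05). Apoptosis genes had 5 of 8 above 0, with Mcl1, a protective member, at 0.24 ± 0.07 and Bad, a death-promoting member, at -0.18 ± 0.17, above 0 by the authors' deposited table and with loess within print blocks.

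Axon guidance and adhesion genes had 20 of 35 below 0, a median of -0.04 and replicate medians of -0.02, -0.02 and -0.01. Lower in all 3 replicates were 9 of the 35 (12.8% of all genes), and higher in all 3 were 5 (11.8% of all genes). Cntn1, a neuronal adhesion molecule gene, had -2.61 in replicate 1 against values from -0.20 to 0.12 on the other 4 arrays, so its mean of -0.94 ± 1.45 rested on replicate 1. Pcdha7, a clustered protocadherin gene, had -0.35 ± 0.19; genes of this cluster share exons and are not told apart by every probe. Efnb3, an ephrin gene, had -0.28 ± 0.10. Cytoskeleton genes had 17 of 33 above 0 (median 0.00), with Kif23 at -0.28 ± 0.05, Stmn3 at 0.26 ± 0.20 and Cfl1 at 0.23 ± 0.21, the last 2 below 0 by the authors' deposited table and with loess within print blocks.

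Olfactory receptors and keratins, gene families not known for a role in the hypothalamus, were described in the same way. Olfactory receptor genes had 5 of 8 below 0, with a median of -0.12 and replicate medians of -0.51, 0.06 and 0.005. Keratin genes had 5 of 8 below 0 (median -0.06). Olfr148 had 0.26 ± 0.33, Olfr157 -0.30 ± 0.20 and above 0 by the authors' deposited table, Krtap1-5 0.26 ± 0.16, Krtap2-4 -0.13 ± 0.05 and Krtap5-4 -0.06 ± 0.05. Each of these 3 keratin-associated genes changed sign under an alternative: Krtap1-5 with loess within print blocks and by the authors' deposited table, Krtap2-4 with median centring and Krtap5-4 with 1 scan. The medians of the immediate early, cytokine and interferon groups were no further from 0 than that of the olfactory receptor genes. They were further from 0 than that of the keratin genes, and these differences were not tested.

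Markers of cell types and regions are given as measured. Of 20 hypothalamic markers on the prints, 18 had a value in some replicate and 10 in all 3, and 7 of the 10 were above 0, with a median of 0.19 and replicate medians of 0.41, 0.21 and -0.02. Markers of neighbouring brain regions had 7 of 8 above 0 (median 0.12, replicate medians 0.08, 0.21 and 0.05). Cplx1 was highest at 0.26 ± 0.08, and Camk2a, a forebrain kinase gene, was the only one below 0, at -0.28 ± 0.12. Neuron markers had 6 of 10 above 0 (median 0.09) and none with 1 sign in all replicates. The part of dissection in the peptide gene values was not tested.

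Oligodendrocyte and myelin markers had 4 of 6 above 0 (median 0.13, highest mean 0.35). The only ones with 1 sign in all replicates went the other way: Tspan2 at -0.37 ± 0.27 and Ugt8a, of myelin galactolipid synthesis, at -0.25 ± 0.08. The dye effect of Ugt8a rested on replicate 3 alone, which makes the 2 arrays of that replicate equal by construction. Astrocyte markers had 3 of 5 above 0 (median 0.04, highest mean 0.22), and Sox9, the only one with 1 sign in all replicates, had -0.24 ± 0.28. Choroid plexus and ependyma markers had 5 of 8 above 0 (median 0.05). Beside Ecrg4 at 0.71, the water channel gene Aqp1 had -0.19 ± 0.17, Cfap97 -0.19 ± 0.07 and Kl, named after its value was seen, 0.19 ± 0.22, so these markers did not all share the sign of Ecrg4. Pituitary markers had 1 of 3 above 0 (median -0.04), with Pitx1 at -0.04 ± 0.04, above 0 with median centring.

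Few markers of blood, vessel, immune and tumour cells reached all 3 replicates: 2 of 8 blood cell markers (median -0.28, with Cd3d, a T cell receptor chain gene, at -0.30 ± 0.25), 1 of 8 endothelial and mural markers, 3 of 11 microglia and macrophage markers (median -0.08), 2 of 7 meningeal and fibroblast markers (median 0.24) and 2 of 13 mammary carcinoma and epithelial markers (median -0.10, 1 above 0 and 1 below). Of the last, Cldn7, a tight junction gene, had -0.92 in replicate 1 and values from -0.48 to 0.06 on the other arrays, a mean of -0.41 ± 0.45. The other, Wfdc2, a secreted epithelial protein gene named after its value was seen, had 0.21 ± 0.32. No summed marker level can be given from ratios, and levels were not compared between genes.

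The other times of the series, 72 h and 18 h, were set against 192 h to see which ratios belonged to the late time. These groups were treated in the same way, with 5 arrays of 3 replicates at 72 h and 6 arrays of 3 replicates at 18 h, each with PBS mice of its own time. The prints differed between times: the 192 h replicates lay on prints 3, 4 and 5, replicate 1 of 72 h on print 4, and all other replicates of 72 h and 18 h on print 5. The dye effect was estimated over all 3 times, so the times share it. No gene passed in 192 h minus 72 h (limma; 0% of 1894 genes, smallest adjusted p 0.999, with 43 at an unadjusted p under 0.05) or in 192 h minus 18 h (0% of 972 genes, smallest adjusted p 0.726, with 33 at an unadjusted p under 0.05). With print as a block, which leaves 2 residual degrees of freedom, no gene passed in either (limma, smallest adjusted p 0.54 and 0.999, with 93 and 13 genes at an unadjusted p under 0.05).

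Against 72 h, the 5 genes of smallest p were all lower at 192 h. Brsk2 had 1.47, 0.15 and 0.90 at 72 h and -0.54, -1.76 and -0.50 at 192 h, a difference of -1.77. Ccdc3, a gene of a secreted protein, had 0.02, 0.70 and 1.16 at 72 h and -0.26, -0.50 and -0.34 at 192 h. Aqp2, the vasopressin-regulated water channel of the kidney, had 0.79, 0.47 and 0.64 at 72 h and -0.10, -1.15 and 0.02 at 192 h. Tenm3, a teneurin gene of neuronal wiring, had 0.53, 0.33 and 0.55 against -0.20, -0.14 and -0.54, and Tmem121b differed by -0.95. These genes were chosen for their p in this contrast, in which all 192 h replicates lay below those of 72 h for 7.66% of the 1894 genes and above them for 1.43%. Within print 5 alone, which holds replicate 4 of 192 h and replicates 3 and 4 of 72 h, the differences of the 5 genes ran from -1.27 in Ccdc3 to -0.53 in Aqp2, and that of Brsk2 was -1.02, against -1.04 in Aqp2 and -1.77 in Brsk2 over all prints. In Brsk2, Ccdc3, Aqp2 and Tenm3, replicates 3 and 4 of 192 h were measured with tumour in Cy3 only. The same was true of replicate 3 in Tmem121b. The dye effect of Ccdc3 rested on 1 swapped replicate. The part of a remaining dye effect in these differences was not tested.

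Against 18 h, Tmeff2, a transmembrane protein gene of the brain, had -0.77, -1.17 and -0.27 at 18 h and a mean of 0.27 ± 0.10 at 192 h, a difference of 1.01. Tpp2 had -0.14, 0.04 and 0.25 at 18 h, and at 72 h -0.66, -0.19 and -0.20, a mean of -0.35. Its 192 h values lay below those of both other times, but its highest, -0.671, nearly equalled its lowest at 72 h, -0.664. For Tpp2 192 h minus 72 h had an unadjusted p of 0.065 and an adjusted p of 0.999 by limma. Chga had -0.92, -2.04 and -0.22 at 18 h and was above 0 in each replicate at 192 h, a difference of 1.44. Gbe1, the glycogen branching enzyme gene, had -0.47, -0.68 and -0.22 at 18 h and 0.36 ± 0.30 at 192 h, with a mean near 0 by the authors' deposited table at 192 h. Mpped2, a phosphodiesterase gene, had -0.56 at 18 h and 0.16 at 192 h, on average. They were likewise chosen for their p in this contrast, in which all 192 h replicates lay above those of 18 h for 6.79% of the 972 genes and below them for 3.50%. On print 5, with replicate 4 alone at 192 h, the differences were 0.90 for Tmeff2, -0.72 for Tpp2, 1.32 for Chga, 0.81 for Gbe1 and 0.77 for Mpped2. For Tpp2, Gbe1 and Mpped2 that replicate was measured with tumour in Cy3 only.

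**Figure D5:**
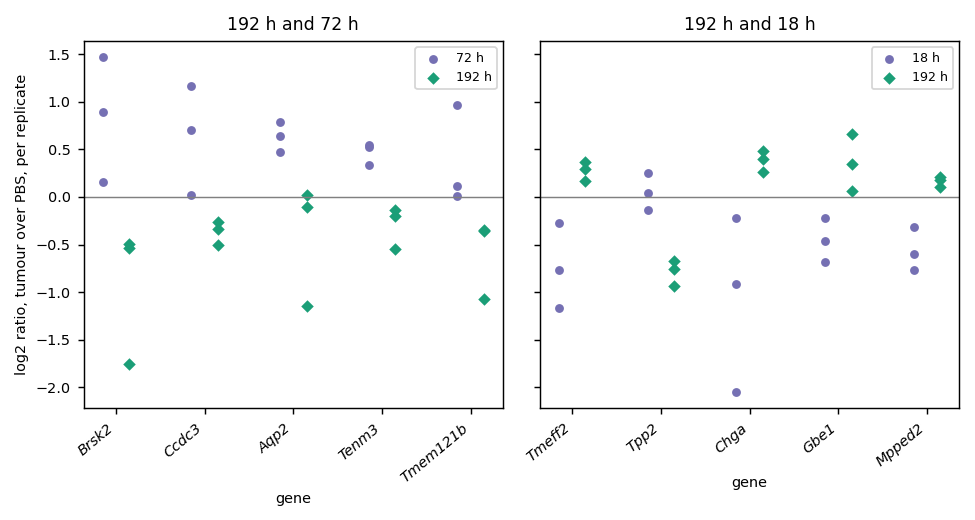
Log2 tumour over PBS ratio per replicate (y axis) of the 5 genes of smallest p between 192 h and 72 h (left) and between 192 h and 18 h (right); each point is 1 replicate. The 192 h points lie wholly below the 72 h points on the left, and wholly on 1 side of the 18 h points on the right, below them for Tpp2 and above them for the other 4 genes.

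Some of the genes with the smallest p at 192 h also had a value in all replicates of another time. Of the higher ones, Ap2a2 had 0.48 at 72 h, Foxb1 0.08 and Vcam1 0.13, and Insr had 0.13 at 18 h. Of the lower ones, Cebpa had -0.32 at 72 h, Bak1 0.07, Egr4 0.06 and 4930465K10Rik -0.04, and Gpcpd1 had 0.04 at 18 h. Oxt had 0.17 at 192 h, 0.18 at 72 h and 0.09 at 18 h, while Hcrt went from -0.04 at 72 h to 0.30. The differences between times of these genes all missed the threshold of an adjusted p under 0.05. The unadjusted p by limma was 0.0185 for Bak1 and 0.0295 for Egr4 against 72 h, and 0.018 for Gpcpd1 against 18 h.

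For replicate 1 the same pair of RNAs had also been hybridised on the left-out print. Ratios were matched by accession and taken before the dye correction. Those of the array used here correlated with those of the 2 left-out arrays at r = 0.144 (1456 probes) and 0.186 (3589 probes). The 2 left-out arrays correlated with each other at r = 0.517 (2002 probes). All of these arrays had tumour in Cy5, so a dye effect of the probes can add to these correlations. The log2 intensities of the array used here correlated at 0.060 with the left-out print and at 0.554 and 0.589 with the other 2 prints.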

How the data were processed

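Each array was deposited as 3 scans, and the direction, the probe names and the prints were handled as given in the report. Spot intensities are background-corrected already, per the file headers, and the saturation factor deposited beside them is a fraction of 0 to 1. The authors' deposited value tables, treated as a score, hold a centred log ratio per spot with the log base not stated. They correlated with the ratios used here, before dye correction, at r = 0.477 to 0.819 over the 5 arrays. With loess within print blocks this was 0.772 to 0.907. No source used here names a genome build.

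In R 4.3.3 with limma 3.58.1, spots at or below 0 in a channel or with a saturation factor under 1 were left out (2.67% to 5.84% of measured spots were saturated). Loess (span 0.3, 4 iterations) was fitted scan by scan, after which the scans of an array and the spots of an accession were averaged. The dye effect of a probe, its mean Cy5 over Cy3 ratio in 7 replicates with exchanged dyes (SD 0.30 over 7928 probes), was subtracted; probes without it dropped out. Every ratio was given the direction tumour over PBS, a replicate was the mean of its arrays, and the brightest probe stood for a gene. Of 8997 named accessions 8909 matched a current gene record. A mean per time was fitted by limma over 9 replicates, with variances moderated across 5184 genes (6.96 prior degrees of freedom), with two-sided tests and Benjamini-Hochberg adjustment within a comparison. The test was tried on simulated data. A gene entered where all 3 replicates had a value. Groups are described by counts and medians, with no test.

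Named are the 10 higher and 10 lower genes of smallest p with 1 sign in all replicates, up to 3 such members of each of 42 lists, 8 peptide genes and 5 genes of each contrast between times. The members and lists were chosen with earlier results of these data known. Alternatives were median centring, normexp (offset 50), no dye correction, saturated spots, 1 scan, mean over probes, dim probes left out, both orientations required, fewer replicates, print or replicate block and the authors' table; loess within 48 print blocks, and print as a block between times, were chosen after seeing the data.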

Additional observations from a re-analysis of the deposited data

Results flagged for a closer look

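The median of the axon guidance and adhesion genes was below 0 in every 192 h replicate and above 0 in every 72 h replicate, over the 18 genes with a value in all replicates of both times. The replicate medians were -0.105, -0.034 and -0.038 at 192 h and 0.085, 0.006 and 0.155 at 72 h, and the median at 192 h minus that at 72 h was -0.123. Over all genes shared by both times the replicate medians were -0.031, -0.042 and 0.001 at 192 h and 0.095, 0.045 and 0.024 at 72 h. The difference was not tested.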

How the results depend on the processing

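The number of genes past the test at 192 h was 0 under every alternative run, with 1501 to 5555 genes tested; leaving out replicates 1, 3 and 4 in turn gave smallest adjusted p-values of 0.242, 0.0527 and 0.140 by limma. Against 72 h it was 0 without each 192 h replicate in turn. With a replicate block over these 2 times alone, 1 gene passed against 72 h (Brsk2) and 2 against 18 h (Cbl and Chga), the latter with 1 residual degree of freedom; with the block over all times 0 passed in either. Whether the replicate numbers pair the samples cannot be told from so few replicates. The deviations of same-numbered replicates of 192 h and 72 h correlated across genes at 0.124, -0.082 and 0.176, and the other pairs at -0.214 to 0.075. For 192 h and 18 h the same-numbered pairs had 0.018 and -0.041, and the other pairs -0.047 to 0.085. Cbl is named after its values were seen.

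Named genes changed sign in 27 instances, and the cause was not tested. With median centring the means became -0.0413 for Smarce1, 0.143 for Rpl7a, 0.0587 for Clcn1, 0.189 for Krtap2-4, -0.0391 for Eif1ad and 0.0329 for Pitx1. With loess within print blocks, an alternative chosen after seeing the data, they were -0.0277 for Smarce1, -0.00913 for Stmn3, -0.0547 for Cfl1, -0.128 for Krtap1-5 and 0.0701 for Bad. Without dye correction they were -0.00490 for Trim54, -0.120 for Smarce1 and -0.0868 for Dgat1, and with 1 scan 0.0393 for Krtap5-4. In the authors' deposited table the values were -0.00465 for Gbe1, 0.0295 for Copz1, -0.00789 for Trim54, -0.0234 for Smarce1, -0.0353 for Dgat1, 0.0169 for Vamp7, 0.0104 for Olfr157, -0.0793 for Stmn3, -0.0400 for Cfl1, -0.0449 for Krtap1-5, 0.0200 for Rpl7a and 0.0220 for Bad. Group medians moved by more than the replicate SD in 64 instances. The number of arrays and the usable spots limit the precision.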
